A study of Homo sapiens with 72 samples.

Results

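U2OS cells treated with MK-2206 at 1000 nM for 12 h were compared with U2OS cells treated with DMSO, the vehicle. The dose is that of the sample labels; the methods text lists the middle dose as 1 nM, and the labels were followed. U2OS is an established human osteosarcoma line. MK-2206, labelled LHD510 in the sample titles, is an allosteric inhibitor of the AKT kinases. The treated group was made of the 3 wells whose titles carry this compound and dose (replicates 1 to 3), and the control group was made of all 18 DMSO wells, so that 21 of the 72 population RNA-seq wells of the series were compared. The wells of MK-2206 at 100 nM and 10000 nM, 3 each, were used to place the 1000 nM response among the doses. Another 9 wells, of miglitol at 100, 1000 and 10000 nM with 3 each, served pooled as alternative controls. The miglitol wells at 1000 nM were also set against DMSO. All wells were grown on 24-well plates in medium with serum, carried no genetic change made for the study and came from 1 cell line, with no label that ties a well to a separate culture, so that p-values measure the spread between wells. The question was which genes and pathways change at a dose between the lowest and the highest one tested.

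AKT is the central kinase of the PI3K pathway. Growth factor receptors and their adaptors activate PI3K, the lipid it makes recruits AKT to the membrane, and AKT phosphorylates FOXO transcription factors, which keeps them out of the nucleus, and regulators of mTORC1, which promotes protein and lipid synthesis. Inhibition of AKT is known to release FOXO and to relieve feedback on receptor tyrosine kinases and on the RAS-ERK pathway. MK-2206 binds between the pleckstrin homology and kinase domains and holds AKT in its inactive form.

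The 3 treated wells held 3.58e+07, 6.00e+07 and 3.90e+07 expected counts, the RSEM estimates of reads per gene. The DMSO wells held 1.84e+07 to 5.64e+07 expected counts, except replicate 10, which held 460014 and was kept unless stated. The sum of counts, the number of genes detected, the mitochondrial share and the fragment length were not called different between treated and DMSO wells in exact two-sided permutation tests (adjusted p from 0.599 to 0.974, smallest possible unadjusted p = 0.0015). The GC slope, the change of a well's log2 level with gene GC content per 10 percentage points, was 0.30, -0.25 and 0.36 in treated wells 1, 2 and 3 and ranged from -0.43 to 0.30 in DMSO (adjusted p = 0.599). Treated well 2 thus stood apart from wells 1 and 3 in base composition. Without it the unadjusted exact permutation p of the GC slope was 0.0211. The mesenchymal markers VIM, SPARC, COL1A1 and FN1 were abundant in every well, whereas TWIST1 was at 0 and COL1A2 near 0 TPM. The 5 epithelial markers summed to 4.15 to 4.59 TPM in treated wells and 4.16 to 8.01 TPM in DMSO, the 5 blood cell markers to at most 1.1 and 1.64 TPM and the 4 endothelial markers to at most 0.82 and 1.19 TPM. CDH5 of the last list was among the genes raised below (0.21 to 0.31 TPM in treated wells, at most 0.24 TPM in DMSO), and its part in other results was not tested.

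At 1000 nM, 223 of 18526 tested genes were raised (1.2%) and 59 were lowered (0.318%) at an adjusted p under 0.05 in edgeR's quasi-likelihood test, to which all adjusted p-values of single genes belong. Among genes at a mean of at least 5 CPM (counts relative to the total of a well), the 12 largest rises included CCN2, ITGA2, EGFR, INHBA and PLAU and the ERK feedback genes IL17RD and IER3, and the 3 largest falls were TNFRSF9, IFIT1 and SYT2. Some called genes of lower level fell by more, MYOCD and IFI44L among them. Most changes were small: 187 of the raised and 42 of the lowered genes moved by less than 2-fold, and with a log2 fold change above 1 or below -1 required as well, 36 genes were raised (0.194%) and 17 lowered (0.0918%). On the log2 scale the raised genes had a median of 0.66, the lowered genes of -0.86 and all genes tested of -0.0115. Of the 282 called genes, 258 were protein-coding and 15 were long noncoding RNAs. All 3 treated wells lay above every DMSO well in 226 of all genes tested (1.22%) and below every DMSO well in 52 (0.281%). Raised genes made 145 of the 226 and lowered genes 30 of the 52. They were called on these same wells, so that this separation is no further support for the calls. Bulk values give amounts of RNA relative to the rest of the transcriptome, so that fewer cells and less RNA per cell cannot be told apart.

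The number of calls depended on the wells and on base composition. With the GC slope as a covariate, 692 genes were raised and 368 lowered, which changed the share of raised genes among the calls from 79.1% to 65.3%, against 65.1% with DESeq2 and 66.5% with library sizes alone; with DMSO replicates 1 to 3 as the only controls no gene was called by edgeR, although 796 had an unadjusted p under 0.05, and with the 9 wells of miglitol, an inhibitor of intestinal alpha-glucosidase, as controls 13 were raised and 1 lowered. Without DMSO replicate 10 the lowered genes numbered 114, and without treated well 1 or well 3 the raised genes numbered 65 or 84.

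**Figure D1:**
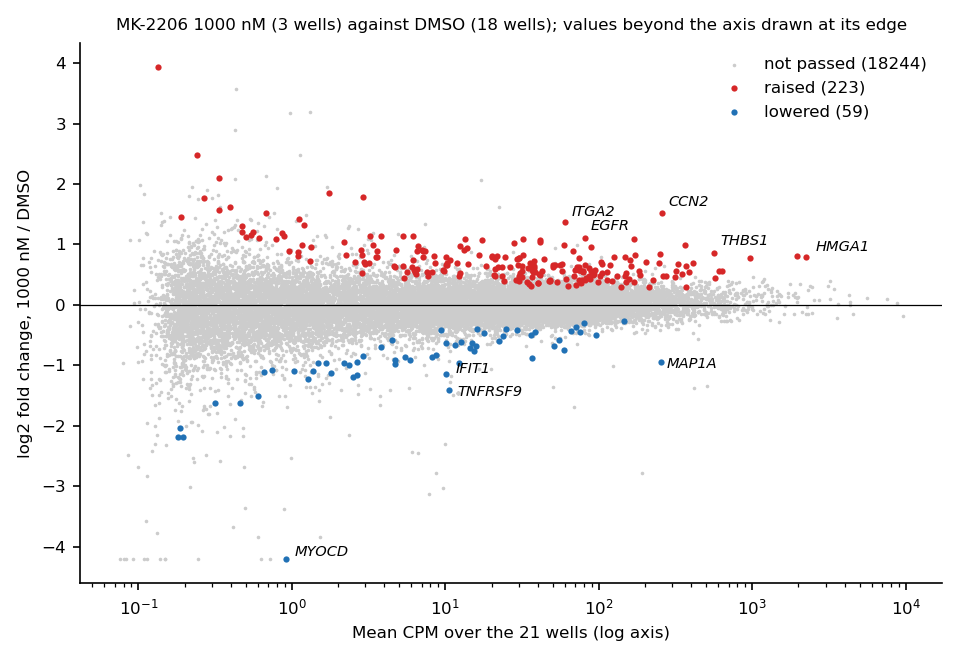
Log2 fold change of MK-2206 1000 nM against DMSO (y axis) against the mean level over the 21 wells in CPM (x axis, log scale), 1 point for each of 18526 genes tested. Red points are the 223 raised genes, blue points the 59 lowered genes and grey points the genes that did not pass. Most red and blue points lie within 1 log2 unit of 0, and the largest changes belong to genes with low counts.

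Levels are given as CPM, counts relative to the total of a well scaled with TMM factors, as the treated wells 1, 2 and 3 and as the lowest, median and highest DMSO well, and fold changes are log2 values with their SE. The 12 protein-coding genes that rose most among those at a mean of at least 5 CPM were named, and likewise the 12 with the largest fall. CCN2, or CTGF, encodes a matricellular protein and lies at chromosome 6, 131948176 to 131951372, minus strand (ENSG00000118523). It reached 502, 770.1 and 486 CPM in the treated wells against 140.0, 209 and 282 CPM in DMSO, a log2 fold change of 1.52 ± 0.17 (adjusted p = 1.64e-05). All 3 treated wells were above every DMSO well, and well 2 was the highest. THBS1 (thrombospondin 1, chromosome 15, 39581079 to 39599466, plus strand), another secreted matrix glycoprotein, was at 881, 1042 and 831 CPM against 397, 505 and 654 CPM and rose by 0.87 ± 0.10 (adjusted p = 2.51e-05). CCN1, or CYR61, was at 478, 528 and 445 CPM against 233, 303 and 389 CPM (0.68 ± 0.10, adjusted p = 0.000282). ANKRD1, an ankyrin repeat protein of muscle and stressed cells, was at 143, 186 and 134 CPM against 73.7, 99.4 and 124 CPM (0.68 ± 0.13, adjusted p = 0.00496), and TGFBI, a secreted adhesion protein, rose by 0.62 ± 0.14 (adjusted p = 0.0202). In each of these genes the treated and DMSO wells did not overlap, and the call of ANKRD1 was lost without treated well 2 and that of TGFBI without well 1 or well 2. They made 5 raised and 0 lowered of 20 tested genes in the list of TGF-beta, matrix and YAP genes, whose median log2 fold change was 0.20. Without treated well 1, 2 or 3 the raised members numbered 4, 3 or 5, and with miglitol wells as controls 0. SMAD7, FN1 and the collagens on this list did not pass.

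CCN2, CCN1 and ANKRD1 are textbook targets of the coactivators YAP and TAZ, which bind DNA through TEAD factors. The 250 bases before the RefSeq start (GRCh38.p14) are shown for the 3 raised members of the list that hold the TEAD motif GGAATG, read on both strands and printed here in capitals; the motif and the genes were chosen after their values were seen. They lie at chr6:131951373-131951622 (minus strand), chr10:90921088-90921337 (minus strand) and chr15:39580829-39581078 (plus strand).
CCN2: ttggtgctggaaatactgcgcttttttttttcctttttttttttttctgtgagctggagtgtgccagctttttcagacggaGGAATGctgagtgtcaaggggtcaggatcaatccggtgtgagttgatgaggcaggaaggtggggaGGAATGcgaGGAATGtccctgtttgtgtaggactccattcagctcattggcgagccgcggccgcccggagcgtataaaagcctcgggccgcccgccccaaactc
ANKRD1: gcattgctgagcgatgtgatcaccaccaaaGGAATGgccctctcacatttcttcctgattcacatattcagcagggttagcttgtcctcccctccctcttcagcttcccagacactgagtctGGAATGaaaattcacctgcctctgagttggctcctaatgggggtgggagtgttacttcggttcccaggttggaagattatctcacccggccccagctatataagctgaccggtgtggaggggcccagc
THBS1: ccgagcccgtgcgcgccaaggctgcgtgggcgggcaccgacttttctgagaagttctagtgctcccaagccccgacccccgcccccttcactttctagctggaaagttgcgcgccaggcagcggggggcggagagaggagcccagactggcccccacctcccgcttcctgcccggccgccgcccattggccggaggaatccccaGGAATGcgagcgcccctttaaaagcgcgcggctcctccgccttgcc
CCN2 held 3 matches, starting 169, 104 and 95 bases before the start, ANKRD1 held 2 and THBS1 held 1. The motif was found in 3 of the 4 raised members of the list with a window, in 1 of 11 windows of the 12 largest rises, in 1 of 9 windows of the 12 largest falls (IFIT1), and in 14% of 27305 windows of the same length plus the 50 bases after the start. Such a match is a description of these letters only. TGACTCA, the AP-1 motif, was found in 0 of the 11 and 1 of the 9 windows (TNFRSF9), against 4.92% of all windows.

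Other genes among the 12 largest rises follow. INHBA (chromosome 7, 41667168 to 41705834, minus strand), the activin A subunit of the TGF-beta family, was at 57.1, 59.0 and 60.9 CPM against 20.2, 28.1 and 38.9 CPM (1.09 ± 0.13, adjusted p = 3e-05). PMEPA1, a membrane protein that limits TGF-beta signalling (chromosome 20, 57648392 to 57711536, minus strand), was at 322, 275 and 329 CPM against 119, 147 and 180.5 CPM (1.09 ± 0.093, adjusted p = 5.12e-07). PLAU, the urokinase protease that activates plasminogen, was at 72.9, 83.4 and 69.1 CPM against 22.9, 35.2 and 51.5 CPM (1.04 ± 0.16, adjusted p = 0.000762). The treated wells lay above every DMSO well in these genes. ITGA2, the alpha subunit of a collagen-binding integrin, was at 86.8, 227 and 67.1 CPM against 25.5, 50.3 and 82.6 CPM (1.37 ± 0.31, adjusted p = 0.0192). Its well 3 was below the highest DMSO well, well 2 was far above the other treated wells, and the call was lost without well 2. ROBO4, a guidance receptor known from endothelium, was at 9.97, 10.5 and 10.4 CPM (1.14 ± 0.18, adjusted p = 0.00133), where 17 DMSO wells lay between 3.26 and 7.14 CPM and the shallow replicate 10 was at 0. PLXNA2, a semaphorin receptor, was at 46.5, 57.5 and 43.5 CPM against 17, 21.7 and 36.9 CPM (1.02 ± 0.18, adjusted p = 0.00246). ARHGEF28, an exchange factor for RhoA, was at 28.9, 37.1 and 28.1 CPM against 11.8, 15.1 and 18.4 CPM (1.07 ± 0.12, adjusted p = 9.63e-06). Both were above every DMSO well in all 3 treated wells.

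**Figure D2:**
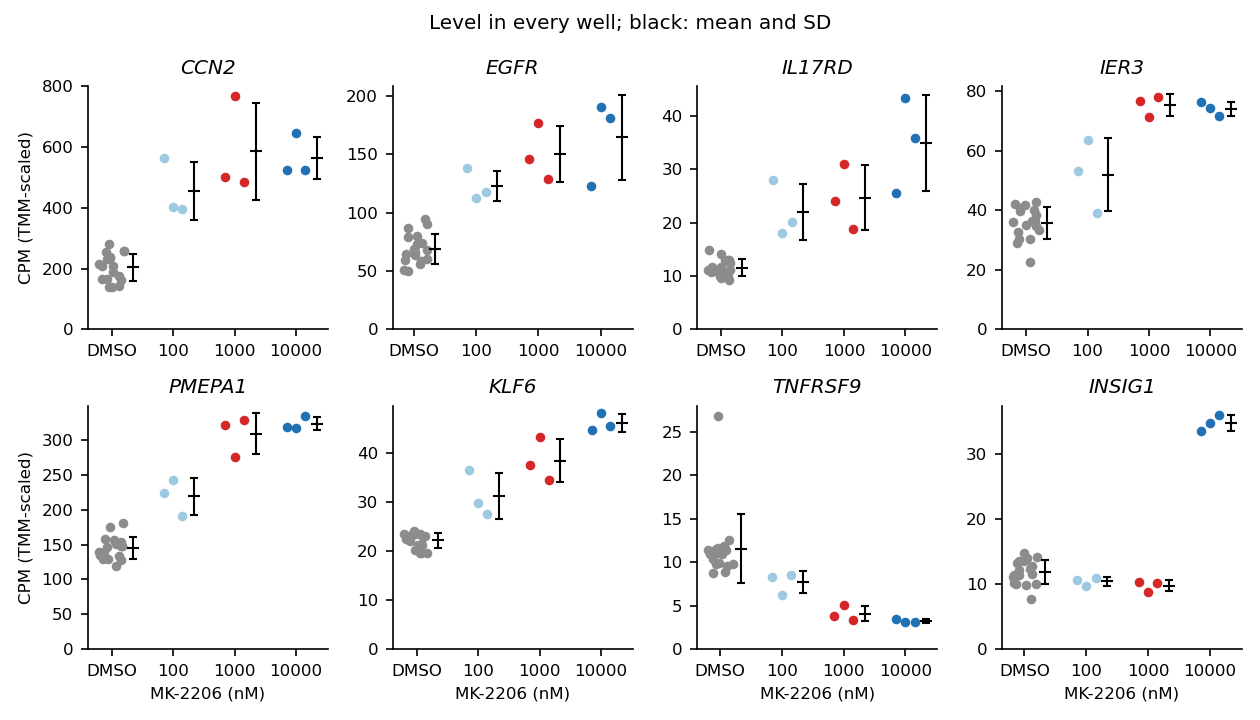
Level (y axis, TMM-scaled CPM) of 8 genes in every DMSO well and in the wells of MK-2206 at 100, 1000 and 10000 nM (x axis); black bars show the mean and SD of a group. The 1000 nM wells lie above all DMSO wells for CCN2, EGFR, IL17RD, IER3, PMEPA1 and KLF6 and below all of them for TNFRSF9, whereas INSIG1 is higher at 10000 nM and not at 1000 nM; the TNFRSF9 point at 26.8 CPM is the shallow DMSO replicate 10.

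ERK output and feedback genes formed the list with most raised members when all wells were used. These genes are transcribed when ERK is active, and many of their products restrain the pathway. Of 17 tested members, 8 were raised and 0 lowered, beside 1.2% and 0.318% of all genes, and the median log2 fold change of the list was 0.71. IL17RD (Sef, chromosome 3, 57089982 to 57170306, minus strand), a membrane inhibitor of FGF and ERK signalling, was at 24.1, 31.1 and 18.9 CPM against 9.21, 11.1 and 14.8 CPM (1.09 ± 0.13, adjusted p = 1.81e-05). IER3, an early response gene (chromosome 6, 30743199 to 30744548, minus strand), was at 76.8, 71.3 and 78.0 CPM against 22.6, 36.2 and 42.6 CPM (1.08 ± 0.12, adjusted p = 1.64e-05). SPRY2, a Sprouty inhibitor of receptor signalling, was at 13.3, 15.8 and 11 CPM against 5.21, 7.64 and 9.39 CPM (0.80 ± 0.14, adjusted p = 0.00312). ETV4, an ETS transcription factor, was at 328, 247 and 336 CPM against 132, 191 and 235 CPM (0.71 ± 0.13, adjusted p = 0.00322). The treated wells lay above every DMSO well in these genes, and the call of ETV4 was lost without well 1 or well 3. DUSP5, a nuclear ERK phosphatase, rose by 0.83 ± 0.20 (adjusted p = 0.0309), PHLDA1 by 0.80 ± 0.16 (adjusted p = 0.00905), SPRED2 by 0.42 ± 0.11 (adjusted p = 0.0443) and SPRED3 by 0.82 ± 0.19 (adjusted p = 0.0259). The members that did not pass included DUSP6, EGR1, FOS and SPRY4. With the GC slope as a covariate 13 of the 17 were raised, and without treated well 1, 2 or 3 the number was 3, 5 or 4, against 4, 3 or 5 in the list of TGF-beta, matrix and YAP genes. With miglitol wells as controls 0 ERK genes were raised, and with DESeq2 12.

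Receptor tyrosine kinases were read as a list of 21 tested genes (median log2 fold change 0.029). Of these, 3 were raised and 0 lowered, beside 1.2% and 0.318% of all genes. DESeq2 called 5 raised and 2 lowered, and the fit with the GC slope 6 and 2. EGFR, the receptor of epidermal growth factor (chromosome 7, 55019017 to 55211628, plus strand), was at 146, 177 and 129 CPM against 49.7, 67.3 and 94.3 CPM (1.11 ± 0.14, adjusted p = 6.5e-05). EPHA4, an ephrin receptor, was at 9.28, 19.0 and 7.12 CPM against 1.91, 5.29 and 8.14 CPM (1.14 ± 0.25, adjusted p = 0.018), where well 3 lay within the DMSO range and the call was lost without well 1 or without well 2. IGF1R, the receptor of insulin-like growth factors, was at 154, 137 and 165 CPM against 105, 117 and 138 CPM (0.39 ± 0.077, adjusted p = 0.00668). EGFR was above every DMSO well in all 3 treated wells; IGF1R well 2 lay below the highest DMSO well, replicate 10, and above the other 17. The call of IGF1R was lost without well 1 or well 3.

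The transcripts of AKT1 and AKT2, kinases that MK-2206 inhibits, were not called different. AKT1 was at 137, 100.1 and 157 CPM against 92.6, 115 and 145 CPM (adjusted p = 0.673) and AKT2 at 262, 205 and 282 CPM against 177, 215 and 274 CPM (adjusted p = 0.562). Treated and DMSO wells overlapped in both. Per length, AKT2 was at 157.7 ± 16.8 TPM in DMSO and AKT1 at 85.0 ± 27.6 TPM (SD, n = 18). Among 31 tested genes of PI3K-AKT signalling, 2 were raised and 1 was lowered, beside 1.2% and 0.318% of all genes. PIK3CD, the delta catalytic subunit of PI3K, was at 83.0, 76.1 and 81.6 CPM against 43.7, 53.6 and 65.8 CPM (0.56 ± 0.11, adjusted p = 0.00612). IRS1, the adaptor of insulin and IGF receptors, was at 161, 120.4 and 187 CPM against 81.5, 105 and 130.0 CPM (0.55 ± 0.11, adjusted p = 0.0103), where well 2 lay within the DMSO range. PIK3R3, a regulatory subunit, was at 26.4, 29.7 and 24.1 CPM against 30.7, 37.8 and 45.3 CPM (-0.50 ± 0.11, adjusted p = 0.0196). Without treated well 1 or well 3 these 3 calls were lost.

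FOXO factors and their targets gave 3 raised and 0 lowered of 26 tested genes (median log2 fold change 0.097), beside 1.2% and 0.318% of all genes. DESeq2 called 3 raised and 1 lowered, and the fit with the GC slope 4 and 1. A fit of treated and DMSO wells 1 to 3 blocked by number called 0 and 0. KLF6, a zinc finger factor, was at 37.6, 43.3 and 34.6 CPM against 19.5, 22.8 and 24.1 CPM (0.80 ± 0.083, adjusted p = 4.66e-06). GABARAPL1, an autophagy protein of the ATG8 family, was at 40.6, 43.4 and 39.0 CPM against 26.1, 29.9 and 38.3 CPM (0.46 ± 0.08, adjusted p = 0.00238). FBXO32 (atrogin-1), a ubiquitin ligase subunit, was at 7.45, 10.2 and 6.88 CPM (0.62 ± 0.16, adjusted p = 0.0402) against 3.97 to 6.24 CPM in 17 DMSO wells and 13.4 CPM in the shallow replicate 10. Its call was lost without any 1 of the treated wells and without any 1 of 16 DMSO wells. KLF6 and GABARAPL1 were called without each well in turn, and with miglitol wells as controls GABARAPL1 was called and KLF6 was not. FOXO1, FOXO3, CDKN1B, BCL2L11, PIK3IP1, TXNIP and the sestrins did not pass. Of the 2 raised FOXO targets with a promoter window none held the FOXO motif GTAAACA, which 3.41% of all windows held.

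Counts in the lists of metabolism and growth stand beside 1.2% raised and 0.318% lowered of all genes tested. Of 35 lysosome and TFEB target genes, 2 were raised and 0 lowered, GABARAPL1 and CTSB, the protease cathepsin B, at 959.6, 738 and 948 CPM against 487, 596 and 729 CPM (0.56 ± 0.10, adjusted p = 0.00219), whose call was lost without treated well 1. Of 28 glycolysis and hypoxia genes, 1 was raised, SLC2A1, the glucose transporter GLUT1, at 194, 168 and 201 CPM against 107, 141 and 176 CPM (0.39 ± 0.10, adjusted p = 0.0421), a call lost without treated well 1 or well 3 and without any 1 of 13 DMSO wells. Of 28 ATF4 and amino acid genes, 1 was lowered, DDIT4 (REDD1), an inhibitor of mTORC1, at 44.6, 31.2 and 39.9 CPM against 41.5, 57.3 and 68.9 CPM (-0.59 ± 0.13, adjusted p = 0.0139). DDIT4 well 1 lay within the DMSO range, the call was lost without well 2 or well 3, and with the GC slope as a covariate 7 genes of this list were lowered. Of 26 genes of sterol synthesis and uptake and 17 of fatty acid synthesis none passed in edgeR. There 2 and 5 had an unadjusted p under 0.05, beside 2051 of all 18526 genes tested. DESeq2 called none of the sterol genes and 2 genes of fatty acid synthesis, both lowered. With the GC slope 1 sterol gene was lowered, and 1 fatty acid gene was raised and 2 were lowered. Over all tested members the medians were, on the log2 scale, -0.062 and -0.14. The abundant members FASN (adjusted p = 0.778), SCAP (adjusted p = 0.674) and ACLY (adjusted p = 0.891) overlapped between the groups.

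Of 27 MYC and ribosome biogenesis genes, 2 were raised. The counts of this and the next lists stand beside 1.2% raised and 0.318% lowered of all genes tested. MYC was at 248, 231 and 257 CPM against 123, 143 and 173 CPM (0.75 ± 0.10, adjusted p = 8.99e-05), and RRS1, a ribosome assembly factor, was at 77.8, 71.9 and 85.3 CPM against 49.2, 56.2 and 71.5 CPM (0.44 ± 0.10, adjusted p = 0.0206). Of 28 G1 to S phase genes, 1 was raised, CCND1 (cyclin D1), at 285, 265 and 312 CPM against 180.1, 210.0 and 257 CPM (0.41 ± 0.093, adjusted p = 0.019). Over the G1 to S list the median log2 fold change was -0.14 and 6 of 28 values were above 0, and genes of it were lowered with DESeq2 (4), with the GC slope (5) and without DMSO replicate 10 (2). In MYC, RRS1 and CCND1 every treated well was above every DMSO well; without treated well 1 or well 3 the calls of RRS1 and CCND1 were lost. Of 28 G2 and mitosis genes none passed in edgeR or DESeq2, TOP2A (adjusted p = 0.896), CDC20 (adjusted p = 0.767) and CCNF (adjusted p = 0.661) included. In edgeR 1 of them had an unadjusted p under 0.05, beside 2051 of all 18526 genes tested. Of 22 p53 target genes none passed in edgeR (3 with an unadjusted p under 0.05), AEN (adjusted p = 0.261) and CDKN1A (adjusted p = 0.763) included, and DESeq2 called 1 raised. With the GC slope 1 p53 target was raised and 3 were lowered, and without DMSO replicate 10 1 was raised. Of 22 interferon response genes 1 was raised and 2 were lowered. ISG20, an exonuclease, was at 5.05, 3.91 and 5.48 CPM against 1.91, 2.80 and 3.73 CPM (0.69 ± 0.15, adjusted p = 0.0143), and IFI44L was at most 0.0855 CPM in the treated wells and 0.373 CPM in DMSO (adjusted p = 0.0469), a level of few reads. Both calls were lost without treated well 1 or well 3, and that of IFI44L without any 1 of 14 DMSO wells.

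**Figure D3:**
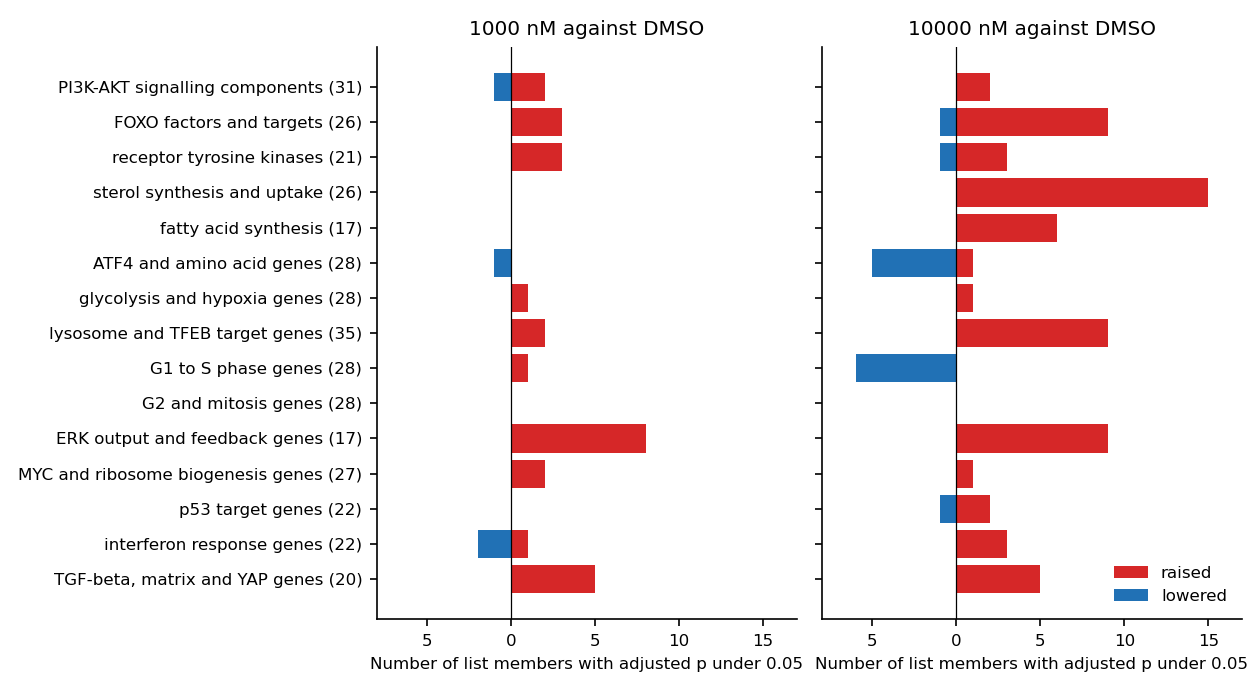
Number of members with adjusted p under 0.05 (x axis, raised to the right in red, lowered to the left in blue) in 15 gene lists (y axis, tested members in brackets) at 1000 nM (left) and at 10000 nM (right), each against the same 18 DMSO wells. At 1000 nM the ERK list holds 8 raised genes and the sterol list 0, and at 10000 nM they hold 9 and 15.

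The largest falls were in genes of lower level. TNFRSF9 (4-1BB, chromosome 1, 7915871 to 7943165, minus strand), a costimulatory receptor of the TNF receptor family, was at 3.86, 5.06 and 3.35 CPM (-1.41 ± 0.18, adjusted p = 8.99e-05) against 8.76 to 12.5 CPM in 17 DMSO wells and 26.8 CPM in the shallow replicate 10. IFIT1, an interferon-induced RNA-binding protein, was at 4.96, 5.32 and 5.24 CPM (-1.14 ± 0.26, adjusted p = 0.0212) against 8.02 to 17.2 CPM in 17 DMSO wells and 0 in replicate 10. SYT2, a synaptotagmin, was at 7.13, 5.23 and 7.87 CPM against 9.58, 12.9 and 17.1 CPM (-0.96 ± 0.15, adjusted p = 0.00106). The treated wells of these genes lay below the 17 deeper DMSO wells. MAP1A, a microtubule-associated protein, was the abundant one, at 152, 85.4 and 185 CPM against 184, 256 and 408 CPM (-0.95 ± 0.22, adjusted p = 0.0226), with well 2 the lowest and well 3 within the DMSO range. ZSCAN31, a zinc finger gene, was at 22.6, 17.9 and 24.2 CPM against 23.0, 39.2 and 49.6 CPM (-0.88 ± 0.15, adjusted p = 0.00205). SEPTIN3, a septin of neurons, was at 10.4, 8.24 and 9.52 CPM against 11.9, 15.7 and 18 CPM (-0.71 ± 0.12, adjusted p = 0.00203). The other 6 of the 12, with log2 fold changes from -0.90 to -0.68, were TET1, a DNA demethylase, TMEM37, PDLIM1, KCNA1, a potassium channel, STON2 and PLCE1, a phospholipase C. TNFRSF9, SYT2, ZSCAN31 and SEPTIN3 were called without each treated well in turn, and the other 8 each lost the call without at least 1 of them.

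Across doses the 1000 nM response was compared with 100 nM and 10000 nM. Each dose was set against the same 18 DMSO wells, so the 3 comparisons share their controls. At 100 nM 11 genes were raised (0.0594%) and 1 lowered (0.0054%), and at 10000 nM 410 were raised (2.21%) and 176 lowered (0.948%). CCN2 changed by 1.16, 1.52 ± 0.17 and 1.46 at 100, 1000 and 10000 nM, EGFR by 0.82, 1.11 ± 0.14 and 1.23, and IL17RD by 0.92, 1.09 ± 0.13 and 1.58. Their call was made at all 3 doses (adjusted p at 100 nM = 0.00661, 0.0265 and 0.00312). PMEPA1, PLAU, KLF6, SPRY2 and THBS1 were also called at 100 nM, as was SYT2 (-0.74, adjusted p = 0.0387). MYC was at 0.47, 0.75 ± 0.10 and 0.52, CCND1 at 0.31, 0.41 ± 0.093 and 0.071 and SLC2A1 at 0.18, 0.39 ± 0.10 and 0.08, with the largest value at the middle dose. These are changes against DMSO, and no gene passed the direct test of 1000 nM against 100 nM in edgeR (0% raised and 0% lowered of 18802 genes, 653 with an unadjusted p under 0.05), while DESeq2 on the 6 wells called 2 higher and 2 lower.

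**Figure D4:**
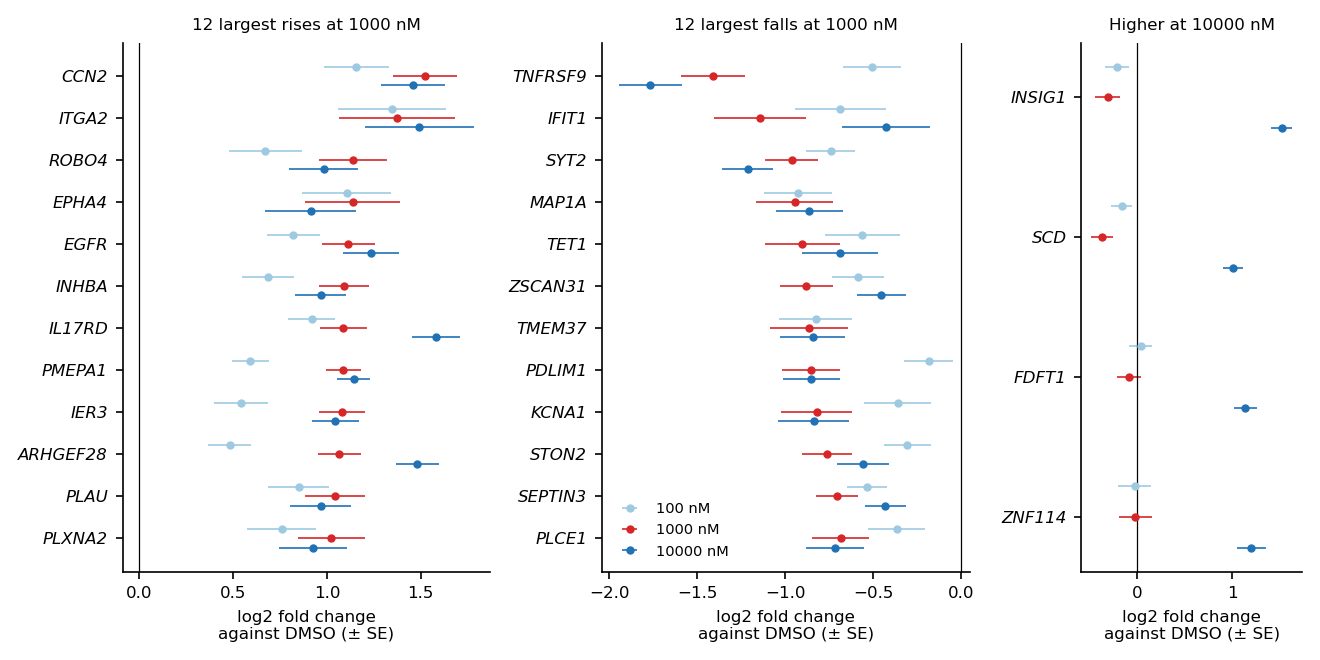
Log2 fold change against DMSO with its SE (x axis) at 100, 1000 and 10000 nM (light blue, red, dark blue) for the 12 largest rises and 12 largest falls at 1000 nM and for the 4 genes named for the contrast of 10000 against 1000 nM (y axis). The doses share their DMSO wells; CCN2 lies at 1.52 and TNFRSF9 at -1.41 at 1000 nM, and INSIG1 lies at -0.31 at 1000 nM and 1.52 at 10000 nM.

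At 10000 nM against 1000 nM, 22 genes were higher (0.117%) and 0 lower (0%, 931 of either sign with an unadjusted p under 0.05, and DESeq2 called 48 higher and 3 lower). With a replicate block, which groups the wells of these 2 doses by number, 121 genes were higher, 21 of the 22 among them, and 17 were lower. No label pairs the wells. The deviations of the 2 wells numbered 3 correlated at only 0.252, and those of well 3 of 1000 nM and well 1 of 10000 nM at 0.66. The higher genes were mostly those of lipid synthesis: 7 of the 26 sterol genes (among them INSIG1, ACAT2, FDFT1, SQLE, HSD17B7 and DHCR7) and 5 of the 17 fatty acid genes (SCD, FADS1, FADS2, LPIN1, PNPLA3), beside 0 of 17 ERK genes and 0 of 21 TGF-beta, matrix and YAP genes. INSIG1, which retains the sterol sensor complex in the endoplasmic reticulum, was at 10.4, 8.75 and 10.1 CPM at 1000 nM, 33.5, 34.7 and 35.9 CPM at 10000 nM and 7.65, 11.8 and 14.7 CPM in DMSO, a difference between the doses of 1.83 ± 0.16 (adjusted p = 8.59e-08). SCD, the stearoyl-CoA desaturase, was at 216, 252 and 209 CPM and 522, 627 and 617 CPM (1.38 ± 0.14, adjusted p = 2.47e-06), and FDFT1, squalene synthase, at 107, 127 and 96.5 CPM and 249.6, 272 and 255 CPM (1.23 ± 0.16, adjusted p = 9.84e-05). ZNF114, a zinc finger gene, was at 3.39, 4.24 and 3.46 CPM and 8.63, 8.62 and 8.78 CPM (1.23 ± 0.21, adjusted p = 0.00513). In each of the 4 genes the doses did not overlap, but the genes were chosen for the size of this difference. The share of all genes without overlap between these doses was not counted. GABARAPL1 was the gene raised at 1000 nM that was also higher at 10000 nM than at 1000 nM (0.52 ± 0.10, adjusted p = 0.0274). Against DMSO, 15 of 26 sterol genes, 6 of 17 fatty acid genes and 9 of 35 lysosome genes were raised at 10000 nM. So were 9 of 26 FOXO genes and 9 of 17 ERK genes, beside 2.21% of all genes. In these lists 1 FOXO gene was lowered at 10000 nM, beside 0.948% of all genes. Within the wells of the 2 doses alone 1 gene was higher, and without treated well 1 or well 3 of 1000 nM the number was 10 or 7.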

How the data were processed

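Population RNA-seq was made by the authors from poly(A)-selected TruSeq stranded libraries of RNA from wells of U2OS cells and processed with a standard RSEM workflow; the submitters' notes also name HTSeq and DESeq2 and the build GRCh38, and the version of RSEM is not given in the sources used here. The deposited expected counts are RSEM estimates per gene, not normalized. TPM, as deposited, divides each estimate by gene length and brings every well to a common sum. FPKM, as deposited, relates it to gene length and mapped reads; a gene above 0 FPKM counted as detected. The deposited effective length gave the fragment length per well. Of 72 wells, 36 were read and 36 were not used here.

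Expected counts were rounded and compared by edgeR 4.0.16 under R 4.3.3 (TMM factors, filterByExpr with a smallest count of 10, glmQLFit, glmQLFTest, Benjamini-Hochberg over all genes tested), 3 treated against 18 DMSO wells; dose contrasts came from 1 fit of 27 wells. Alternatives used DESeq2 1.42.0 and other scalings, filters, controls, covariates and wells. The GC slope used genes of at least 5 CPM. Symbols and positions came from GENCODE release 44 (56104 of 60371 identifiers), promoter windows from RefSeq. Permutation tests used scipy 1.17.1. Scripts were tested on simulated data. Named were the 12 largest rises and falls at a mean of at least 5 CPM whose 3 treated wells all lay above, or all below, the mean of DMSO, AKT1, AKT2, CDC20, CCNF, up to 4 called genes per list (or its 2 most abundant) and the 4 largest of each dose contrast; other names were chosen after their values were seen, and some genes under this rule are not reported here. The wells, gene lists and rules were chosen with earlier results of these data known. One member of the lists (SOD2) had no matching identifier. Wells of 1000 and 10000 nM with the same number had correlated deviations (r = 0.597, 0.854 and 0.252), and no label pairs them. Well 3 of 1000 nM correlated more with well 1 of 10000 nM (r = 0.66). Against 100 nM the same-number values were -0.711, -0.87 and -0.645. Treated wells were checked pairwise for duplicates, and none was found. Reads carry no molecular identifiers, so depth covers counting error only. Near-identical paralogs share reads that RSEM divides by estimate.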

Additional observations from a re-analysis of the deposited data

Results flagged for a closer look

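For 10000 nM against 1000 nM of MK-2206, 4 protein-coding genes were chosen among those that passed edgeR's test of that difference. They differed most at a mean of at least 5 CPM, and passing the test was a condition of the choice. With only the wells of the 2 doses in the fit, 1 gene was called higher. On the log2 scale INSIG1 was higher at 10000 nM by 1.83, SCD by 1.38, FDFT1 by 1.23 and ZNF114 by 1.23. None of the 4 had passed at 1000 nM against DMSO, where their adjusted p-values were 0.361, 0.125, 0.859 and 0.987. Without any single well of either dose, or without DMSO replicate 10, the differences lay between 1.76 and 1.89 for INSIG1, 1.33 and 1.47 for SCD, 1.14 and 1.35 for FDFT1, and 1.17 and 1.34 for ZNF114.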

How the results depend on the processing

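The counts at 1000 nM moved with the choice of genes, controls and covariates; the causes were not tested. At an adjusted p under 0.05, 338 genes were raised and 181 lowered with DESeq2, 133 raised with no filter on low counts, 123 raised and 35 lowered with at least 10 counts in every well, where fewer genes were tested, and 0 and 0 with DMSO replicates 1 to 3 alone. For miglitol at 1000 nM against the same DMSO wells DESeq2 called 95 raised and 22 lowered, and edgeR 0 and 0 (1563 with an unadjusted p under 0.05). With 9 miglitol wells as controls they were 13 and 1, with the GC slope as a covariate 692 and 368, and with fragment length as a covariate 106 were lowered. With the GC slope and without DMSO replicate 10, an alternative chosen after seeing the data, they were 773 and 613. With a log2 fold change above 1 or below -1 as well, they were 7 and 1 with at least 10 counts in every well, 0 and 0 with DMSO replicates 1 to 3, 4 and 1 with miglitol controls, 56 and 59 with the GC slope, and 58 and 62 with it and without DMSO replicate 10, while 26 were lowered with library sizes alone, 27 with DESeq2 and 30 with fragment length. Leaving out 1 well at a time gave 65 to 261 raised and 16 to 114 lowered genes, and 24 to 40 and 7 to 26 with the fold; the lowest came without treated well 1, and DMSO replicate 10 gave the highest at the adjusted p alone. Treated and DMSO wells share only numbers: their same-number deviations correlated at 0.704, -0.0198 and 0.702. Treated well 1 and DMSO well 3 correlated at 0.676, and treated well 3 and DMSO well 1 at 0.561. Treated well 2 correlated with DMSO wells 1 and 3 at -0.715 and -0.797. A replicate block over these 6 wells gave 23 and 8 genes (13 and 8 with the fold). Of these, 21 of the 23 were among the 223 raised and 0 of the 8 among the 59 lowered, so that no named fall was called. The block left 3 ERK genes and 2 TGF-beta, matrix and YAP genes raised. Against 100 nM, DESeq2 called 2 higher and 2 lower, and leaving out a well or the replicate block left 0 and 0. Between 10000 and 1000 nM, 1 gene was higher with the 2 doses alone, 121 higher and 17 lower with the replicate block, 48 and 3 with DESeq2, and 7 to 35 higher without 1 well, the highest without DMSO replicate 10. Of the 44 called genes named, 20 were called without each treated well and each DMSO well in turn, 12 with the replicate block and 4 with miglitol controls, and all 44 with the GC slope. No called gene that was tested changed direction in any setting. Depth limits genes of few counts, most in DMSO replicate 10 with 460014 counts.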

Other observations

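Genes outside the lists and outside the largest changes were read by level, and they were chosen after their values were seen. Among the abundant genes raised at 1000 nM were HMGA1, a chromatin protein, at 3755, 2726 and 4085 CPM against 1446, 1996 and 2583 CPM in DMSO (0.80 ± 0.13, adjusted p = 0.00174 in edgeR's test), MT2A, a metallothionein, at 3493, 2603 and 3291 CPM against 914, 1809 and 2448 CPM (0.82 ± 0.19, adjusted p = 0.0263), and TIMP1, an inhibitor of matrix metalloproteinases, at 1638, 1271 and 1609.5 CPM against 613, 859.7 and 1118 CPM (0.78 ± 0.13, adjusted p = 0.00133). All 3 treated wells were above every DMSO well in these genes, and treated well 2 was the lowest of the 3. ITGB5, an integrin subunit, rose by 0.56 ± 0.10 (adjusted p = 0.00402), EZR, the actin linker ezrin, by 0.45 ± 0.09 (adjusted p = 0.00842), KRT18, a keratin, by 0.65 ± 0.11 (adjusted p = 0.00219) and LTBP2, a matrix protein, by 0.54 ± 0.12 (adjusted p = 0.0211). EMP1, a membrane protein, was at 550.0, 864 and 488 CPM against 192, 324 and 414 CPM (0.99 ± 0.19, adjusted p = 0.00441), with treated well 2 the highest.

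Of the abundant lowered genes, HTT, huntingtin, was at 127, 129 and 122 CPM against 140.1, 148 and 168 CPM (-0.26 ± 0.065, adjusted p = 0.0414), PEG3, an imprinted zinc finger gene, at 69.2, 73.1 and 71.3 CPM against 78.9, 101 and 123 CPM (-0.49 ± 0.11, adjusted p = 0.0144), and PER3, a circadian period gene, at 22.4, 24.0 and 21.9 CPM against 23.0, 30.0 and 36.1 CPM (-0.42 ± 0.10, adjusted p = 0.0245). All 3 treated wells were below every DMSO well in HTT and PEG3, and wells 1 and 3 in PER3. Among genes under 5 CPM, EDN1, the peptide endothelin 1, was at 5.51, 11.5 and 5.95 CPM against a median of 2.18 and at most 2.91 CPM in DMSO (1.79 ± 0.18, adjusted p = 4.02e-06). MYOCD (myocardin), a coactivator of serum response factor, had 0, 0 and 1 counts in the treated wells against a median of 30 counts in DMSO, where 17 wells lay between 0.311 and 2.91 CPM (adjusted p = 0.000762). At 100 nM its levels were 0.178, 0.139 and 0.259 CPM and at 10000 nM 0.117, 0.233 and 0.13 CPM, each below these 17 wells. In edgeR's test the fall of MYOCD was not called at 100 nM (adjusted p = 0.128) and was called at 10000 nM (adjusted p = 0.0163).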
